A study of Homo sapiens with 18 samples.

Results

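KRTAP3-1, KRTAP2-3 and KRTAP1-5 are 3 human genes that encode keratin-associated proteins, and they lie in the large KRTAP cluster on chromosome 17. They were chosen by the response of HCT116 cells to irradiation, in which KRTAP3-1 had the largest rise, together with 2 further genes of its cluster, and they are 3 of the 40916 symbols in the count tables. Keratin-associated proteins are small proteins, rich in cysteine or in glycine and tyrosine, that fill the space between hair keratin filaments in the hair shaft and are cross-linked to them through disulfide bonds. KRTAP1, KRTAP2 and KRTAP3 genes encode high-sulfur members, which are known from the cortex of the growing hair. None of them is a usual marker of colonic or mammary epithelium.

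RNA was sequenced from 18 libraries in 6 groups of 3 biological replicates. MCF10A is a non-transformed human mammary epithelial line, here carrying H2B-GFP, a fluorescent histone. HCT116 comes from a human colorectal carcinoma and carried no fluorescent label here. The third culture type was a mixture of both lines that the labels describe as equal parts. Each culture was either left non-irradiated (NIR) or given 10 Gy of radiation (IR). Sample titles place the harvest on day 2, while the series text places it 72 h after irradiation. MCF10A grew in a supplemented F12 and DMEM mix and HCT116 in McCoy medium, so line and medium cannot be told apart. What the mixtures were grown in is not given in the sources used here. In libraries of bulk RNA, fewer cells of a type and less RNA per cell cannot be told apart either.

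The libraries held between 25737818 and 40839835 counts. The 10 basal mammary markers summed to 11202 to 23065 CPM (counts scaled to a library total of 1000000) in MCF10A and to 566 to 1307 in HCT116, where TP63 was at 0 in the non-irradiated group. The 10 intestinal markers summed to 1047 to 1974 CPM in HCT116, with CDX1 at 0, and to 8.05 to 11.7 in MCF10A. Most of the HCT116 sum was KRT19 (a mean of 886 and 1549 CPM without and with irradiation) and EPCAM (315 and 301). CDX2 had 10.0 CPM in non-irradiated HCT116. VIL1, CDH17, GPA33, HNF4A and KRT20 had 0.177, 0.612, 0.530, 0.812 and 1.13 CPM there, so the sum does not show broad expression of intestinal markers. Of the values from 1 to 10, 68.3% were even, so both mates of a read pair may have been counted, and error from counting alone is understated where it is given below.

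In the GRCh38 annotation each of the 3 genes is a single exon on the minus strand of chromosome 17. GENCODE 29 places the coding transcript of KRTAP3-1 at chr17:41008521-41009114 with 294 coding bases, or 98 codons. KRTAP1-5 lies at chr17:41026026-41027202 with 522 coding bases, or 174 codons. KRTAP2-3 lies at chr17:41059240-41060114 with 384 coding bases, or 128 codons. The RefSeq start of KRTAP1-5 is 18.1 kb from that of KRTAP3-1, and the start of KRTAP2-3 is 51.0 kb from it, with 6 genes listed between the outer pair.

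The 250 bases before each RefSeq start (GRCh38.p14) are shown because the 3 genes are neighbours that differed in level. The windows are chr17:41009129-41009378, chr17:41060115-41060364 and chr17:41027209-41027458, all read on the minus strand, and all 3 genes matched the promoter table. Capitals mark matches on either strand to 5 motifs, none of which overlapped. The TATA box was searched as TATATAA and the site of AP-1 factors as TGANTCA. The site of TEAD factors was searched as CATTCC and that of LEF and TCF factors as CTTTGA. The last motif was the CCAAT box.
KRTAP3-1: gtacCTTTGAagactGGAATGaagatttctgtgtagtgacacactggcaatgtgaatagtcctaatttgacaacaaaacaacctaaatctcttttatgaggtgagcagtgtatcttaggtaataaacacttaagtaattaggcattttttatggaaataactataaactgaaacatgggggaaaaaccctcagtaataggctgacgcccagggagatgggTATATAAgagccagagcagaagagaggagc
KRTAP2-3: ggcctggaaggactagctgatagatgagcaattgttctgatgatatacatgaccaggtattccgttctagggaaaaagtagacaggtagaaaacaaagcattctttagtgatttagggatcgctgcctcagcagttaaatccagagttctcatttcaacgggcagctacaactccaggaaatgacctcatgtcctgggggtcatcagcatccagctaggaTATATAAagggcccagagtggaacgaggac
KRTAP1-5: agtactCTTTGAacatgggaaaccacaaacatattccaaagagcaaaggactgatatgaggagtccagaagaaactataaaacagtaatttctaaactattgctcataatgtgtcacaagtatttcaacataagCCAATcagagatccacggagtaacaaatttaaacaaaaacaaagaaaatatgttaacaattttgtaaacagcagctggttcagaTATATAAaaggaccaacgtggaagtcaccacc

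Each of the 3 windows held TATATAA close to the start, with its first base 30 bases before the start in KRTAP3-1 and KRTAP2-3 and 32 before it in KRTAP1-5. This motif was added after the sequences had been read. It was present in 849 of 35116 RefSeq windows of the same length (2.42%) and in 9 of the 33 KRTAP windows on chromosome 17. CTTTGA was found in KRTAP3-1 and KRTAP1-5, in 11.2% of all windows and in 13 of these 33 KRTAP windows. CATTCC was found in KRTAP3-1, on the opposite strand, in 11.9% of all windows and in 3 of the 33. CCAAT was found in KRTAP1-5, in 32.0% of all windows and in 21 of the 33. TGANTCA was in none of the 3 genes, against 6.57% of all windows and 4 of the 33.

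KRTAP3-1 was close to absent without irradiation and was among the clearly measured genes after it, in every culture that held HCT116 cells. In non-irradiated HCT116 its counts were 12, 14 and 4 in replicates 1 to 3, or 0.347, 0.435 and 0.145 CPM. In irradiated HCT116 they were 1538, 1449 and 950, or 46.9, 35.5 and 36.9 CPM. All irradiated libraries lay far above all non-irradiated ones. The group means were 0.309 ± 0.149 and 39.7 ± 6.20 CPM (SD, n = 3), a ratio of 129, and the fitted log2 fold change was 6.96 with a standard error (SE) of 0.20. This contrast chose the genes, so it is given as a description without a test.

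KRTAP2-3 followed with a smaller ratio from a higher starting level. Its counts in non-irradiated HCT116 were 27, 74 and 77, or 0.781, 2.30 and 2.79 CPM, and replicate 1 was the low one. In irradiated HCT116 the counts were 1014, 1070 and 755, or 30.9, 26.2 and 29.3 CPM. The groups did not overlap. The means were 1.96 ± 1.05 and 28.8 ± 2.39 CPM (SD, n = 3), a ratio of 14.7 and a fitted log2 fold change of 3.92 (SE 0.22).

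Among all genes, 25.3% were called higher in irradiated HCT116. KRTAP3-1 ranked 1 and KRTAP2-3 ranked 4 by fold change among the 3053 genes that were called higher, reached 10 CPM and did not overlap between the groups. Between them stood KLK5, a serine protease of the epidermis, with a log2 fold change of 4.62, and CPA4, a carboxypeptidase, with 4.40. These 2 were named after their values were seen.

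KRTAP1-5 did not share the rise, so the name of an irradiation-induced group holds for 2 of the 3 genes. It had 2 counts in replicate 1 of non-irradiated HCT116, 4 counts in replicate 1 of the irradiated mixtures and 0 in the other 16 libraries. In irradiated HCT116 it was at 0 in all 3 libraries, where 3 counts over the group would be 0.0302 CPM. It passed the filter on low counts in no comparison. With no filter, the change in the mixtures had an adjusted p of 0.349 in edgeR. A change in its level was not detectable at this depth.

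**Figure D1:**
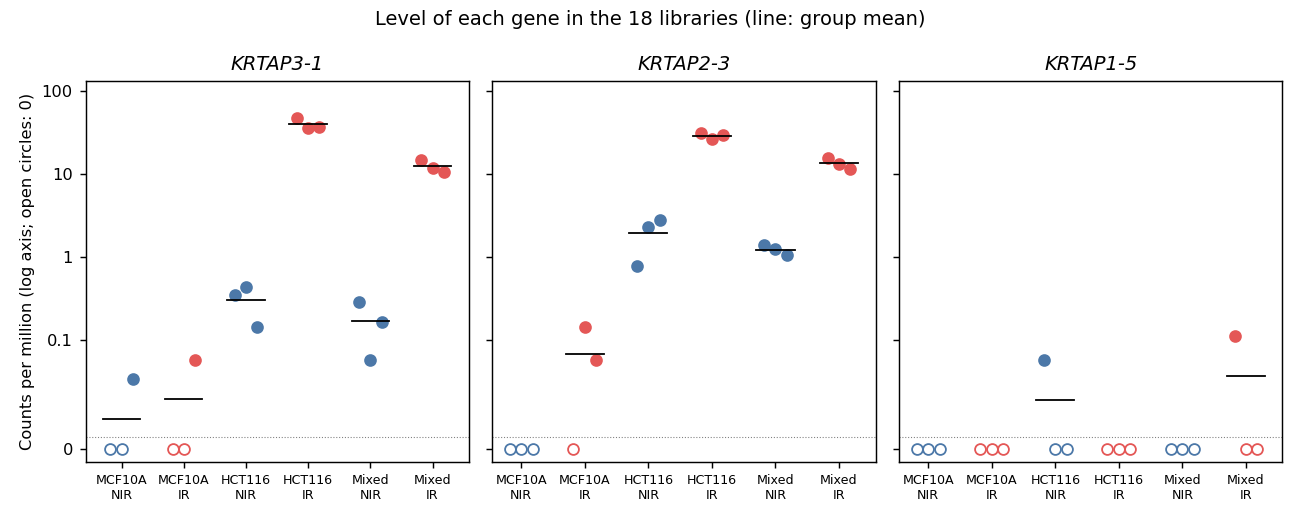
CPM of the 3 genes (log axis, with 0 drawn as open circles at the bottom) in each of the 18 libraries, with black lines at the group means. KRTAP3-1 reaches 35.5 to 46.9 CPM in irradiated HCT116 and 10.7 to 14.9 in the irradiated mixtures, KRTAP2-3 reaches 26.2 to 30.9 and 11.5 to 15.6, and KRTAP1-5 has counts in 2 libraries.

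The rule that chose the genes did not use the mixtures, so the irradiation response was tested there. The rise of KRTAP3-1 in the mixtures was known when the genes were chosen, however, and with so few counts before irradiation KRTAP3-1 passed the filter through the irradiated group. The test is therefore no independent support. KRTAP3-1 had 8, 2 and 6 counts in the non-irradiated mixtures, or 0.286, 0.0577 and 0.167 CPM. After irradiation it had 524, 442 and 386 counts, or 14.9, 11.8 and 10.7 CPM. The lowest irradiated library stood well above the highest non-irradiated one. The means were 0.170 ± 0.114 and 12.4 ± 2.17 CPM (SD, n = 3), a ratio of 73.1. The log2 fold change was 6.20 (SE 0.29) with an adjusted p of 2.9e-13 in edgeR's quasi-likelihood test.

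KRTAP2-3 rose in the mixtures as well. Its counts were 39, 43 and 38 without irradiation, or 1.40, 1.24 and 1.06 CPM, and 550, 486 and 418 after it, or 15.6, 13.0 and 11.5 CPM. The 3 libraries within each group lay close together, and the groups did not overlap. The means were 1.23 ± 0.170 and 13.4 ± 2.05 CPM (SD, n = 3), a ratio of 10.9. The log2 fold change was 3.42 (SE 0.18) with an adjusted p of 2.2e-12 in edgeR. Of all 16906 genes tested in the mixtures, 24.0% were called higher and 25.4% lower, so a rise as such was common and the 2 genes stand beside many others that were called.

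In MCF10A alone the genes were at or near 0. KRTAP3-1 had 0, 0 and 1 counts without irradiation and 0, 0 and 2 after it. KRTAP2-3 had 0 in all 3 non-irradiated libraries and 0, 4 and 2 counts in the irradiated ones. Neither passed the filter, and with no filter the adjusted p in edgeR was 0.843 for KRTAP3-1 and 0.212 for KRTAP2-3. Of all genes tested in MCF10A, 26.2% were called higher and 29.2% lower. Under upper-quartile scaling the share of calls that were higher moved from 47.4% to 57.5% there.

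Whether the response differed between the mixtures and MCF10A could hardly be tested from so few MCF10A counts. For KRTAP3-1 the difference of log2 fold changes, mixtures minus MCF10A, was 5.34 (SE 2.78) with an adjusted p of 0.149 in edgeR. DESeq2 gave 5.17 and called it, with an adjusted p of 0.0064. For KRTAP2-3 the difference was -0.83 (SE 0.85) with an adjusted p of 0.501 in edgeR, and it turned to 0.12 without replicate 2 of irradiated MCF10A, the library with 4 counts. In this contrast 19.5% of genes were called higher and 14.3% lower, and the share of higher calls moved from 57.8% to 41.2% with upper-quartile scaling, 46.0% with DESeq2 and 38.2% with counts halved.

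The levels themselves differed between these cultures. Genes this low in MCF10A passed the filter through the mixtures, where they were high, so the calls below are no independent support. In irradiated mixtures against irradiated MCF10A, KRTAP3-1 had a log2 fold change of 8.68 (SE 0.40, adjusted p = 1.1e-14 in edgeR) and KRTAP2-3 one of 7.33 (SE 0.34, adjusted p = 1.3e-14 in edgeR), where 38.3% of genes were called higher. The fitted sizes follow single MCF10A libraries, at 11.6 for KRTAP3-1 without replicate 3 of irradiated MCF10A and 8.33 for KRTAP2-3 without replicate 2. For KRTAP3-1 the ratio of means was 635, and the 2 counts in MCF10A leave a 95% exact binomial interval of 152 to 4547. Without irradiation KRTAP2-3 was at least 40.5-fold higher in the mixtures than in MCF10A, taking 3 counts over the MCF10A group as the floor, or 20.3-fold with counts halved. That difference was called by edgeR (adjusted p = 1.6e-06), where 37.9% of genes were called higher. KRTAP3-1 had 16 counts against 1 there, a ratio of 15.0 with an interval of 2.49 to 672, did not pass the filter, and had an adjusted p of 0.108 in edgeR without it. Upper-quartile scaling moved the median of all genes from 0.04 to 0.22 on the log2 scale in the non-irradiated comparison and from 0.04 to 0.21 in the irradiated one. It also moved the share of higher calls from 51.3% to 61.6% in the former and from 51.2% to 59.8% in the latter. With upper-quartile scaling the log2 fold changes after irradiation were 8.83 for KRTAP3-1 and 7.49 for KRTAP2-3. Without irradiation that of KRTAP2-3 was 8.34.

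Ordered by mean, KRTAP3-1 was highest in irradiated HCT116 at 39.7 CPM, followed by the irradiated mixtures at 12.4. These 2 groups did not overlap, with a ratio of 3.20. Non-irradiated HCT116 at 0.309 and the non-irradiated mixtures at 0.170 overlapped. The lowest non-irradiated mixture (0.0577) also lay below the highest irradiated MCF10A library (0.0588), and the MCF10A groups overlapped with each other, with means of 0.0196 and 0.0114. KRTAP2-3 had the same order, with 28.8, 13.4, 1.96, 1.23, 0.0682 and 0 CPM. Its irradiated HCT116 and mixed libraries did not overlap (a ratio of 2.15), while the non-irradiated HCT116 and mixed libraries did, and all mixtures lay above all MCF10A libraries. Which line the counts of a mixture came from cannot be read from a mixture, and the MCF10A monocultures held at most 4 counts of either gene in a library.

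The ratio of KRTAP3-1 to KRTAP2-3 was higher after irradiation in HCT116 and in the mixtures. Per kilobase of RefSeq gene, the level of KRTAP3-1 relative to KRTAP2-3 was 0.640, 0.272 and 0.0748 in non-irradiated HCT116 and 2.18, 1.95 and 1.81 in irradiated HCT116. In the mixtures the ratio was 0.295, 0.0669 and 0.227 without irradiation and 1.37, 1.31 and 1.33 after it. All 6 non-irradiated libraries lay below 1 and all 6 irradiated ones above it. For the irradiated mixtures the side of 1 depends on the gene lengths used. By counts, KRTAP2-3 (550, 486 and 418) stayed above KRTAP3-1 (524, 442 and 386) in each of them. The irradiated mixtures lay below the irradiated HCT116 libraries without overlap. The non-irradiated ratios rest on 2 to 14 counts of KRTAP3-1 each. Across the 18 libraries the log2 CPM of the 2 genes had a Pearson r of 0.92, and across the 12 HCT116 and mixed libraries it was 0.96. These values describe groups that share irradiation and line.

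**Figure D2:**
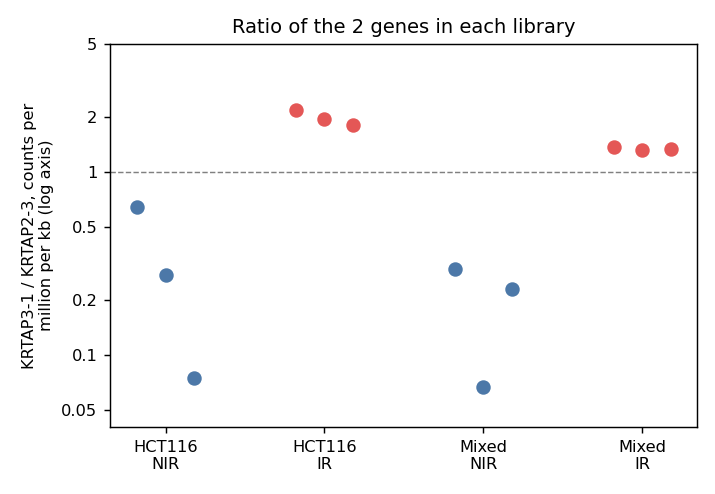
Ratio of KRTAP3-1 to KRTAP2-3 in CPM per kilobase (log axis) in each HCT116 and mixed library, with a dashed line at 1. The non-irradiated libraries lie between 0.0669 and 0.640 and the irradiated ones between 1.31 and 2.18. For the irradiated mixtures the side of 1 depends on the gene lengths used.

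KRTAP2-3 has close copies, so its counts are less certain than those of KRTAP3-1. Its coding sequence differs from that of KRTAP2-4 by 1 base in 384 (99.7% identical) and from that of KRTAP2-1 by 2 (99.5%). Of the 726 stretches of 150 bases in its GENCODE transcript, 214 (29.5%) occur unchanged in a transcript of KRTAP2-1, KRTAP2-2 or KRTAP2-4. For KRTAP3-1 and KRTAP1-5 no such stretch occurs in another gene, and the nearest listed copies of KRTAP3-1, KRTAP3-2 and KRTAP3-3, are 73.4% identical in coding sequence. KRTAP2-4, named after its values were seen, had 5 to 6 counts in non-irradiated and 24 to 36 in irradiated HCT116, and 3 to 9 and 15 to 19 in the mixtures. Its log2 fold change in the mixtures was 1.52 (SE 0.61, adjusted p = 0.0448 in edgeR), and the call was lost with DESeq2 (adjusted p = 0.0721) and when any library other than replicate 2 of the non-irradiated mixtures was left out (adjusted p up to 0.163).

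The rest of the family was low. Of 113 symbols that begin with KRTAP, 71 had no count in any library, 7 had a count in an MCF10A library, and 3 reached a mean of 1 CPM in any group. KRTAP3-1 and KRTAP2-3 together held 85.6% of all KRTAP counts. The third to reach 1 CPM was KRTAP2-5P, a pseudogene of the same cluster with no protein product. It had 5, 35 and 13 counts in non-irradiated and 52, 63 and 60 in irradiated HCT116, and 5, 0 and 2 and then 34, 54 and 50 in the mixtures. It stayed at 0 in all 6 MCF10A libraries. In both HCT116 and the mixtures the irradiated libraries lay above the non-irradiated ones. Its log2 fold change in the mixtures was 4.03 (SE 0.66, adjusted p = 3.0e-05 in edgeR), 5.28 without replicate 1 and 3.43 without replicate 2 of the non-irradiated mixtures.

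In the mixtures 7 KRTAP symbols passed the filter and 7 were called higher, against 24.0% of all genes, but a gene this low passes only through the group where it is high, so the count is no support. Besides those given above they were KRTAP4-7 (log2 fold change 3.49), KRTAP5-1 (2.04) and KRTAP5-AS1 (1.81), named after their values were seen. Without replicate 2 of the non-irradiated mixtures KRTAP4-7 had 4.59. KRTAP5-AS1 is a non-coding RNA antisense to KRTAP5 genes, and whether counting used the strand is not given in the sources used here. The call for KRTAP5-AS1 was lost without replicate 2 of either mixed group (adjusted p up to 0.0958 in edgeR). Without any filter, the 110 KRTAP symbols other than the 3 members summed to 1.18 to 1.43 CPM in the non-irradiated mixtures and to 5.78 to 6.09 in the irradiated ones. In HCT116 the sums were 1.42 to 2.30 and 5.95 to 7.95 CPM. Of the 110, 26 had a count in the mixtures, and the mean was higher after irradiation for 19 and lower for 7. The same count was not made over all symbols of such low level, so it is no support for a rise of the family.

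Position in the cluster shows how uneven the levels were. RefSeq lists 58 genes between KRT23 and KRT36, the stretch that holds the type I hair keratins and this KRTAP cluster, and 54 of them were in the count tables, 40 of them KRTAP genes. In non-irradiated HCT116, KRTAP3-1 and KRTAP2-3 held 64.4% of the counts of these 40, and in irradiated HCT116 93.6%. In the mixtures the shares were 73.5% and 87.6%. Of the 54 genes, 2 reached a mean of 1 CPM in non-irradiated HCT116 and in the non-irradiated mixtures, and 4 did so after irradiation in each. In MCF10A none did.

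**Figure D3:**
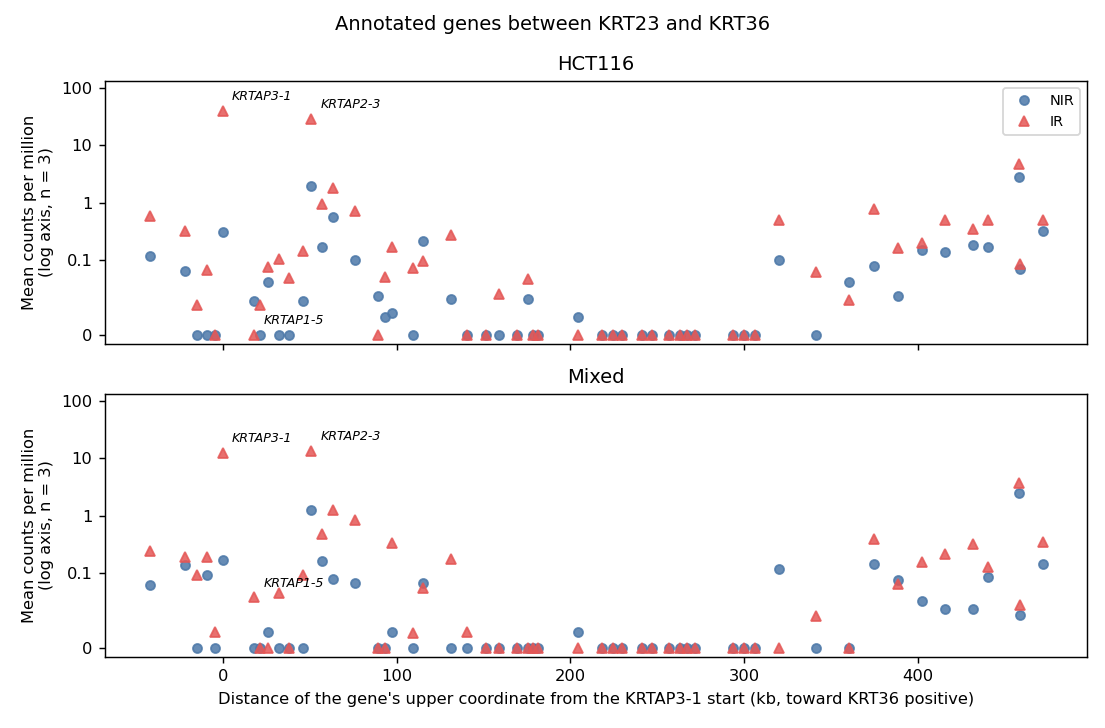
Mean CPM (log axis, 0 at the bottom, n = 3 per group) of the annotated genes between KRT23 and KRT36 against distance in kilobases from the KRTAP3-1 start, for HCT116 and the mixtures. After irradiation KRTAP3-1 (39.7 and 12.4 CPM) and KRTAP2-3 (28.8 and 13.4 CPM) stand above every other gene of the stretch, while KRTAP1-5 between them stays under 0.04 CPM.

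Hair keratins are the filament partners of keratin-associated proteins. Of 17 listed, 5 were tested in the mixtures and 2 were called higher and none lower, beside 24.0% and 25.4% of all genes. The median log2 fold change was 1.30 beside 0.01 for all genes. That median includes KRT35 and KRT36, at a mean of 0.145 and 0.213 CPM in the non-irradiated mixtures, and genes this low pass the filter mainly where they are high, so it is no support for a rise of the group. In MCF10A 4 were tested, of which 2 were called higher and none lower, beside 26.2% and 29.2% of all genes, with a median of 0.79. KRT81, a type II keratin of the hair cortex, was at 4.79, 3.40 and 3.72 CPM in the non-irradiated and 32.5, 22.4 and 26.5 CPM in the irradiated mixtures. These did not overlap, and its log2 fold change was 2.75 (SE 0.15, adjusted p = 2.2e-12 in edgeR). In HCT116 KRT81 went from 1.41 ± 1.01 to 7.37 ± 0.840 CPM (SD, n = 3). In MCF10A it was abundant at 2432 ± 121 and 2379 ± 16.7 CPM (SD, n = 3). The part of MCF10A RNA in the level of KRT81 in the mixtures was not tested.

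KRT86, another type II hair keratin, was at 0.286 to 0.639 CPM in the non-irradiated and 1.12 to 1.45 in the irradiated mixtures (log2 fold change 1.40, SE 0.43, adjusted p = 0.00958 in edgeR). In MCF10A its log2 fold change was 0.55 (SE 0.23, adjusted p = 0.0452 in edgeR), and the call was lost with DESeq2 (adjusted p = 0.0522) and without replicate 1 or 2 of non-irradiated or replicate 2 or 3 of irradiated MCF10A (adjusted p up to 0.280). KRT32, a type I keratin of the hair cuticle, was at 0 in all MCF10A libraries. In the mixtures it had 2.50 ± 0.302 and then 3.63 ± 0.293 CPM (SD, n = 3), and its log2 fold change of 0.51 (SE 0.21) missed the threshold (adjusted p = 0.0515 in edgeR) but passed it with upper-quartile scaling (adjusted p = 0.0380). KRT34 was the other gene called in MCF10A and is named after its values were seen. It had a log2 fold change of 2.67 there (SE 0.59, adjusted p = 0.000374 in edgeR), from 0.144 to 0.945 CPM. A library held 2 to 6 counts of KRT34 before irradiation and 22 to 37 after it, so KRT34 passed the filter through the irradiated group. Neither its call nor its part in the MCF10A counts and median of hair keratins is support for a rise.

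Other proteins of the hair shaft and its sheaths moved in both directions. Of 15 listed, 10 were tested in the mixtures, and 5 were called higher and 1 lower (24.0% and 25.4% of all genes), with a median log2 fold change of 0.42. In MCF10A 10 were tested, with 4 called higher and 1 lower (26.2% and 29.2% of all genes). PADI3, an enzyme that converts arginine to citrulline in trichohyalin and other hair proteins, was at 6.42 to 9.88 CPM in the non-irradiated and 35.6 to 39.3 in the irradiated mixtures (log2 fold change 2.13, SE 0.12, adjusted p = 4.3e-12 in edgeR). In HCT116 it was at 7.33 to 9.41 and 27.1 to 29.9 CPM, and in MCF10A at most 0.941. CRYM, a crystallin that binds thyroid hormone, fell from 7.90 to 8.16 CPM in the non-irradiated to 2.82 to 3.68 in the irradiated mixtures (log2 fold change -1.35, SE 0.17, adjusted p = 7.4e-07 in edgeR). No inner root sheath or companion layer keratin of the 9 listed passed the filter in the mixtures.

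Of 15 transcription factors known from the hair follicle, 12 were tested in the mixtures, with 8 called higher and 0 lower (24.0% and 25.4% of all genes) and a median log2 fold change of 0.66. In MCF10A, 12 were tested, with 4 called higher and 1 lower (26.2% and 29.2% of all genes) and a median of 0.15, and with upper-quartile scaling these counts were 5 and 0. TRPS1, a zinc finger repressor of the GATA type, had the largest rise in the mixtures, from 0.111 to 0.286 CPM to 0.607 to 1.23 (log2 fold change 2.25, SE 0.54, adjusted p = 0.00149 in edgeR). At this level it passed the filter through the irradiated group, so its call is no support. TRPS1 was at 0 in all 6 HCT116 libraries and had a mean of 78.2 and 77.4 CPM in the MCF10A groups, and mammary basal markers near 0 in HCT116 were also higher in the irradiated mixtures, as given below. HOXC13, a homeodomain factor known to act on hair keratin and KRTAP genes and named after its values were seen, had a log2 fold change of -0.51 (SE 0.33) in the mixtures with an adjusted p of 0.218 in edgeR. It passed the threshold without replicate 2 of the non-irradiated (adjusted p = 0.0442) or replicate 1 of the irradiated mixtures (adjusted p = 0.0232).

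**Figure D4:**
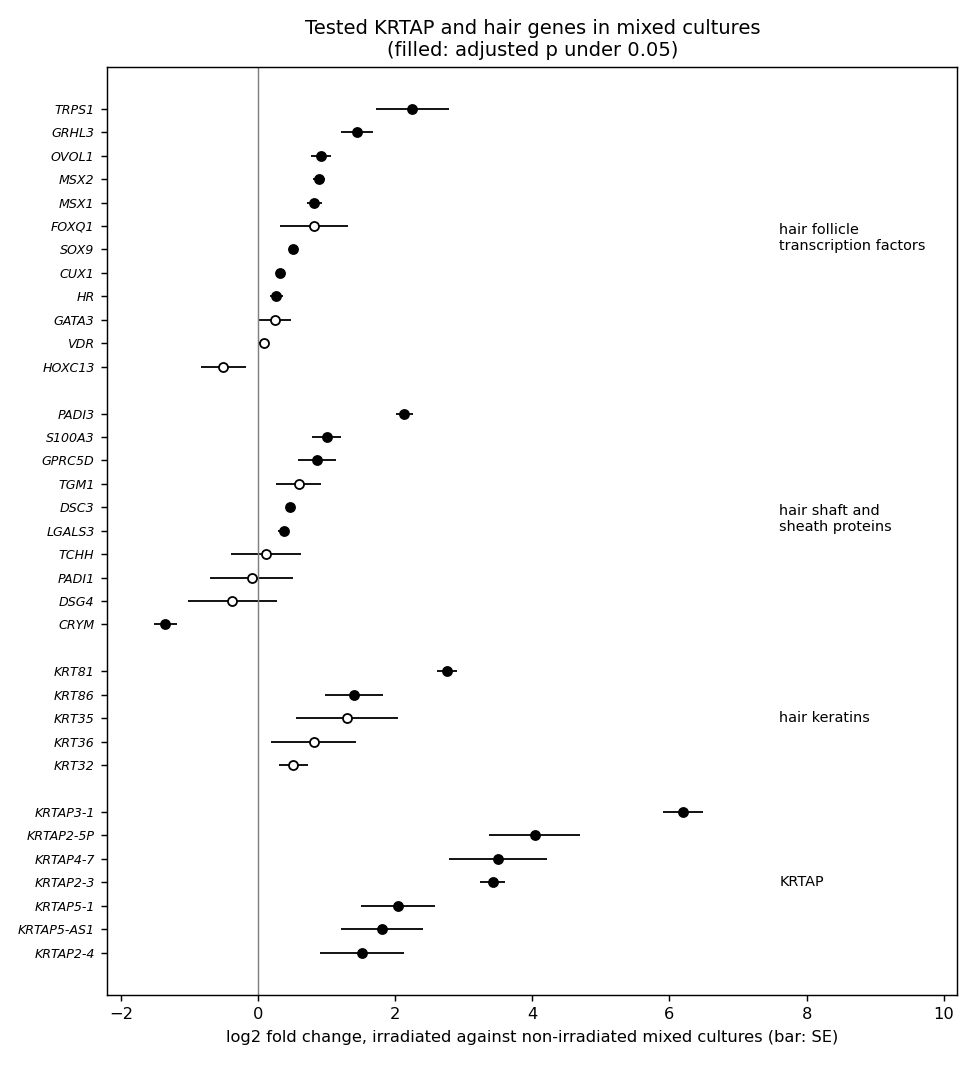
Log2 fold change of irradiated against non-irradiated mixtures (points, bars show the SE) for each tested gene of the KRTAP family and of the 3 hair gene lists, filled where the adjusted p is under 0.05. KRTAP3-1 lies at 6.20 and KRTAP2-3 at 3.42, while the hair genes outside the family lie between -1.35 (CRYM) and 2.75 (KRT81).

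Markers of mammary basal cells moved with irradiation in the same libraries. All 10 were called higher in the mixtures, against 24.0% of all genes. Their sum was 612 to 725 CPM in the non-irradiated mixtures and 1456 to 1726 in the irradiated ones, while in HCT116 alone it was 566 to 635 and 1101 to 1307 CPM. Most of these sums was ITGB4, an integrin that HCT116 expresses itself, with a mean of 477 and 978 CPM in HCT116 and 460 and 1025 in the mixtures, so the sum does not show how much MCF10A RNA a mixture held. Markers near 0 in HCT116 were far lower in the mixtures than in MCF10A, although the labels describe equal parts, and were higher after irradiation. What part of the RNA of a mixture came from MCF10A was not tested. DSG3 had a mean of 1.19 and 4.83 CPM in the mixtures, 0.0207 and 0.417 in HCT116, and 124 and 209 in MCF10A. KRT17 had 2.71 and 13.1 CPM in the mixtures, 0.127 and 1.69 in HCT116, and 481 and 915 in MCF10A. TP63 had 0.882 and 1.97 CPM in the mixtures, 0 and 0.0326 in HCT116, and 109 and 131 in MCF10A. KRT5 had 0.724 and 2.72 CPM in the mixtures, 0.117 and 1.54 in HCT116, and 2883 and 2784 in MCF10A. KRT14 had 0.589 and 1.68 CPM in the mixtures, 0.288 and 0.921 in HCT116, and 465 and 477 in MCF10A. ITGB4 and these markers were named after their values were seen. The intestinal markers summed to 975 to 1004 CPM in the non-irradiated and 1425 to 1507 in the irradiated mixtures. Most of this was again KRT19 (a mean of 680 and 1177 CPM) and EPCAM (295 and 265). The part of either marker group in the KRTAP values was not tested. KRTAP3-1 and KRTAP2-3 were at or near 0 in MCF10A, where the basal markers were highest.

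Mitochondrial transcripts took 8.37% to 8.75% of the counts in the non-irradiated and 11.5% to 12.7% in the irradiated HCT116 and mixed libraries. A second total left out those transcripts and the 10 most abundant genes. With it KRTAP3-1 had 0.188 CPM in the non-irradiated and 14.4 in the irradiated mixtures, and KRTAP2-3 had 1.36 and 15.4. In HCT116 KRTAP3-1 had 0.342 and 45.7 CPM, and KRTAP2-3 had 2.17 and 33.1. The level of KRTAP2-3 in irradiated HCT116 thus moved from 28.8 ± 2.39 CPM (SD, n = 3) by more than its SD.

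The genes whose pattern was most like KRTAP3-1 over the 18 libraries, by Pearson r of log2 CPM among 12265 genes, were SH3BP4 (r = 0.980), BIK (0.978), KRT18 (0.978), RABL2A (0.975) and RGS16 (0.974). KRT18, a keratin of simple epithelia, had 393 and 1307 CPM in HCT116 and 303 and 840 in the mixtures, without and with irradiation, and 154 and 163 in MCF10A. BIK, a BH3-only protein of the apoptosis pathway, had 7.72 and 29.3 CPM in HCT116, 6.20 and 21.7 in the mixtures, and 5.11 and 3.52 in MCF10A. For KRTAP2-3 the 5 were CATSPERG (0.988), ALDH1A3 (0.988), IQANK1 (0.987), UBASH3B (0.987) and LDB1 (0.986). ALDH1A3, an enzyme of retinoic acid synthesis, had 371 and 1460 CPM in HCT116, 336 and 1289 in the mixtures, and 81.5 and 105 in MCF10A. These genes were picked by their likeness, so their rise in HCT116 and the mixtures follows from the choice. In MCF10A some were higher after irradiation as well, such as IQANK1 (5.95 to 9.42 CPM) and LDB1 (60.0 to 71.6). BIK and RGS16 (2.32 to 2.12) were lower there. Each of the genes most like either member but CATSPERG (0.332 and 0.615 CPM without and with irradiation) had means above 1 CPM in both MCF10A groups. The names depend on the measure. None of either 5 was among the top 5 by Spearman's rho or over the 12 HCT116 and mixed libraries. KRTAP1-5 had too few counts for such a ranking to mean anything.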

How the data were processed

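The authors deposited 1 table of raw counts per gene symbol for each library. Per the labels, RNA was extracted with TriZol and libraries were made with the Illumina Stranded mRNA Prep. Per the submitters' processing notes, fastp, STAR, featureCounts and GRCh38 were used, with versions, settings and annotation not given in the sources used here. Groups and replicate numbers were taken from the sample titles. A detail of the HCT116 genotype is not reported here.

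CPM are counts scaled to a library total of 1000000. Each comparison was fitted over all genes of the compared groups with edgeR 4.0.16 in R 4.3.3 (TMM factors, filterByExpr, quasi-likelihood test, 2-sided). Adjusted p-values are Benjamini-Hochberg over all genes tested, and a gene was called at an adjusted p under 0.05. The SE of an edgeR log2 fold change was derived as its absolute value divided by the square root of the F statistic. It is therefore approximate, and has little meaning where a group had 0 counts, as for KRTAP2-3 in non-irradiated MCF10A. Fits were tested on simulated data. Alternatives were upper-quartile factors, DESeq2 1.42.0, no filter, halved counts, all 6 groups in 1 fit, a replicate block, and leaving out each library. The labels call the replicates biological but do not say what separated them, so p-values measure the spread between these libraries. Promoters and gene positions are from RefSeq tables of GRCh38.p14, and transcripts from GENCODE 29, whose build matches the one named by the submitters. Coding sequences were aligned with Biopython 1.88.

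The members, gene lists and tests were chosen with earlier results of these data known, among them the rise of KRTAP3-1 in the mixtures. Named genes are the 3 members, KRTAP genes and hair keratins with a group mean of at least 1 CPM, the 5 genes most like each member, and, from the lists of hair shaft proteins and hair follicle transcription factors, the 2 largest rises and falls called in the mixtures (1 gene was called lower). Lists covered hair keratins, inner root sheath keratins, hair shaft and sheath proteins, hair follicle transcription factors, basal mammary markers and intestinal markers. Sample pairing by replicate number was checked: residuals of same-numbered libraries had correlations of -0.043 to 0.109 over 15 pairs of groups, so numbers were not taken as pairs.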

Additional observations from a re-analysis of the deposited data

Results flagged for a closer look

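For several hair-related genes the response to irradiation differed between the mixtures and MCF10A by edgeR's test of the difference itself (log2 fold change in the mixtures minus that in MCF10A). Of 7 hair keratins tested, 2 were called higher and 0 lower, of 12 hair shaft and sheath proteins 3 higher and 1 lower, and of 13 hair follicle transcription factors 6 higher and 2 lower, where 19.5% of all genes were called higher and 14.3% lower. The called hair keratins were KRT81 and KRT83, of which KRT83 is named after its values were seen. KRT83 had a difference of 5.12 (SE 1.64, adjusted p = 0.0177 in edgeR). It was at 0 in all non-irradiated mixtures and had a mean of 0.278 CPM in the irradiated ones, so its call is no support. Genes near 0 in 1 culture type can pass the filter through the other, so these counts are no support either. The values of those named in the report follow. KRT81 had a difference of 2.87 (SE 0.14, adjusted p = 1.5e-13 in edgeR). Its means without and with irradiation were 2432 and 2379 CPM in MCF10A, 1.41 and 7.37 in HCT116, and 3.97 and 27.1 in the mixtures. The part of MCF10A RNA in its rise in the mixtures was not tested. TRPS1 had a difference of 2.35 (SE 0.37, adjusted p = 1.4e-05 in edgeR), but it was at 0 in all HCT116 libraries. In MCF10A TRPS1 was at 78.2 and 77.4 CPM without and with irradiation. Its rise in the mixtures stands beside that of other genes near 0 in non-irradiated HCT116. These were DSG3 (1.19 to 4.83 CPM), KRT17 (2.71 to 13.1), TP63 (0.882 to 1.97), KRT5 (0.724 to 2.72) and KRT14 (0.589 to 1.68). Their part in the rise of TRPS1 was not tested. CRYM had one of -2.71 (SE 0.60, adjusted p = 0.000834 in edgeR). In MCF10A CRYM was near 0, with a mean of 0.0823 and 0.220 CPM without and with irradiation. It passed the filter through the mixtures, and its difference rests on few MCF10A counts. PADI3 had one of 1.26 (SE 0.41, adjusted p = 0.0188 in edgeR), and its call was lost with counts halved (adjusted p = 0.0652) and without replicate 1 of non-irradiated (adjusted p = 0.268) or replicate 2 of irradiated MCF10A (adjusted p = 0.0504). HOXC13 had one of -1.11 (SE 0.41, adjusted p = 0.0387 in edgeR), and its call was lost with DESeq2 (adjusted p = 0.110). When each library was left out in turn, the call held without replicate 1 of non-irradiated MCF10A, replicate 2 or 3 of the non-irradiated mixtures or replicate 1 of the irradiated mixtures, and was lost without any other (adjusted p up to 0.178). For KRT86 the difference was 0.89 (SE 0.45) and was not called (adjusted p = 0.131 in edgeR). Groups of 3 libraries are too small to test for a library that stands apart.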

How the results depend on the processing

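In the mixtures, the rises of KRTAP3-1 (log2 fold change 6.17 to 6.24 over 6 alternatives) and KRTAP2-3 (3.40 to 3.46) kept their direction and call under each of them. Leaving out each library gave 5.78 to 6.70 and 3.29 to 3.52. The difference in response between the mixtures and MCF10A was less settled. For KRTAP3-1 it was called with DESeq2 (5.17), and leaving out each library gave 3.37 to 8.18, never called. For KRTAP2-3 leaving out each library gave -1.38 to 0.12. The cause was not tested. The levels in irradiated mixtures against MCF10A kept their calls throughout, at 8.22 to 11.6 for KRTAP3-1 and 6.83 to 8.33 for KRTAP2-3 when each library was left out. Total counts of called genes stayed within 1.5 times of those reported under each alternative run, but higher calls for the difference in response went from 3541 to 2348 and lower calls from 2588 to 3800 with counts halved. In MCF10A, 2 hair genes that were not called changed sign with upper-quartile factors, KRT81 (0.031) and TRPS1 (0.048), and leaving out each library gave -0.12 to 0.036 for TRPS1.

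Same-numbered libraries share only a number. With replicate number as a block, the log2 fold change in the mixtures was 6.19 for KRTAP3-1 and 3.41 for KRTAP2-3, 8050 genes were called in place of 8347, and no call of either gene changed. KRTAP2-4 was no longer called with the block (1.58, adjusted p = 0.0646 in edgeR).

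Depth limits KRTAP1-5 and both other genes in MCF10A, where a library holds 0 to 4 counts.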
